A study of Mus musculus with 13 samples.

Results

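Mouse liver sections taken 14 d after partial hepatectomy were compared with sections taken 72 h after it, over every gene of a 100-gene in situ panel. The comparison used 5 of the 13 sections of the series, 3 from 14 d and 2 from 72 h, chosen by their time labels and not by any measured value. All 5 came from male C57BL/6 mice whose age is given as 2 months, on regular chow, with 2/3 of the liver removed, and all were cut from frozen regrown lobes. The other 8 sections were from 0 h, 24 h, 48 h, 3 months and 6 months and entered the tests as a common estimate of the spread between sections. Transcripts were counted by Molecular Cartography, which detects single RNA molecules of chosen genes in a tissue section by repeated rounds of fluorescent labelling. Whether sections of the same time stem from separate animals is not labelled, and p-values may therefore reflect technical spread alone. All 14 d sections lay on slide 3, whereas 72 h section 1 lay on slide 1 and 72 h section 2 on slide 2, so slide and time cannot be told apart.

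After loss of tissue, quiescent hepatocytes of the mouse enter the cell cycle within days, divide, and restore liver mass while continuing their metabolic work. Hepatocytes differ along the lobule. Those around the central vein make glutamine and metabolise drugs under the influence of Wnt ligands from endothelial cells, and those around the portal vein run urea synthesis and gluconeogenesis. In Wnt signalling, ligands bind Frizzled receptors with Lrp5 or Lrp6, beta-catenin enters the nucleus, and targets such as Axin2 are transcribed. Axin2 in turn helps to degrade beta-catenin, Znrf3 and Rnf43 remove Frizzled receptors from the surface, and R-spondins protect the receptors from that removal.

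The 14 d sections held 11479, 15644 and 15817 cells, against 4794 and 11345 cells in the 72 h sections. Transcripts assigned to cells numbered 7104425, 9619206 and 7345023 at 14 d, against 2456278 and 5057675 at 72 h. The median cell held 632, 626 and 470 transcripts at 14 d, against 491 and 441 at 72 h. Cyp2e1 alone made up 15.9, 15.1 and 15.5% of the transcripts at 14 d, against 24.1 and 19.3% at 72 h. No 2 sections shared more than 2 cell names, and no shared name had identical counts. Over all genes tested the root mean square log2 difference was 0.32 to 0.40 between 14 d sections and 0.54 between the 72 h sections, against 0.96 to 1.13 across the times. Hepatocyte markers (Cps1, Arg1, Ass1, Pon1, Vtn, Apom) summed to 138820, 163706 and 145699 CPM at 14 d, against 205781 and 202780 CPM at 72 h. CPM is the count per 1000000 of a section's TMM-scaled total, a scaling which assumes that most genes do not change. A chosen panel need not meet that assumption, so the number of transcripts per cell was tested as well, with the number of cells as the library size. Per cell the hepatocyte markers summed to 114, 112 and 80.8 transcripts at 14 d, against 99.1 and 89.6 at 72 h, and these groups overlapped. Relative to TMM scaling, total-count scaling raised the log2 fold change of a gene by a median of 0.32, and counting per cell by a median of 0.56. In sums over a section, fewer cells of a type and less RNA per cell cannot be told apart.

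Of 99 genes tested, 10 were higher at 14 d than at 72 h (10.1%) and 17 were lower (17.2%) in edgeR's quasi-likelihood test at a Benjamini-Hochberg adjusted p under 0.05. With total-count scaling the split was 14 higher and 9 lower, and the calls of Arg1, Ccne1, Cpt2, Cyp1a2, Cyp2e1, Vtn, Wnt3a and Wnt5b ended. Per cell it was 14 higher (14.1%) and 4 lower (4.04%), and all 10 genes called higher by TMM scaling and these 4 lower genes were called under both scalings. The other 4 genes called per cell (Epas1, Fbp1, Fzd1, Ptprc) were also called with total-count scaling. Cpox, Elovl2, C6 and Gstm3 fell and Fzd2 rose under all 19 TMM alternatives. Per cell, Gstm3 and Fzd2 kept their calls under all 11 alternatives. An alternative fit summed the 14 d sections to 1 library and kept those of 0 h, 48 h and 72 h separate. It leaves 14 d with no spread of its own, and it is no bound for sections that share an animal. No called gene tested there changed sign. Leaving out 14 d section 2, 72 h section 1 or 72 h section 2 lowered the TMM count of higher genes to 5, 5 and 4. Leaving out 14 d section 1, 72 h section 1 or 72 h section 2 lowered the count of lower genes to 11, 9 and 11. Per cell, leaving out 14 d section 1, 14 d section 2, 72 h section 1 or 72 h section 2 gave 5, 4, 4 and 5 higher genes, and without any of the first 3 of these sections 1 gene was lower.

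**Figure D1:**
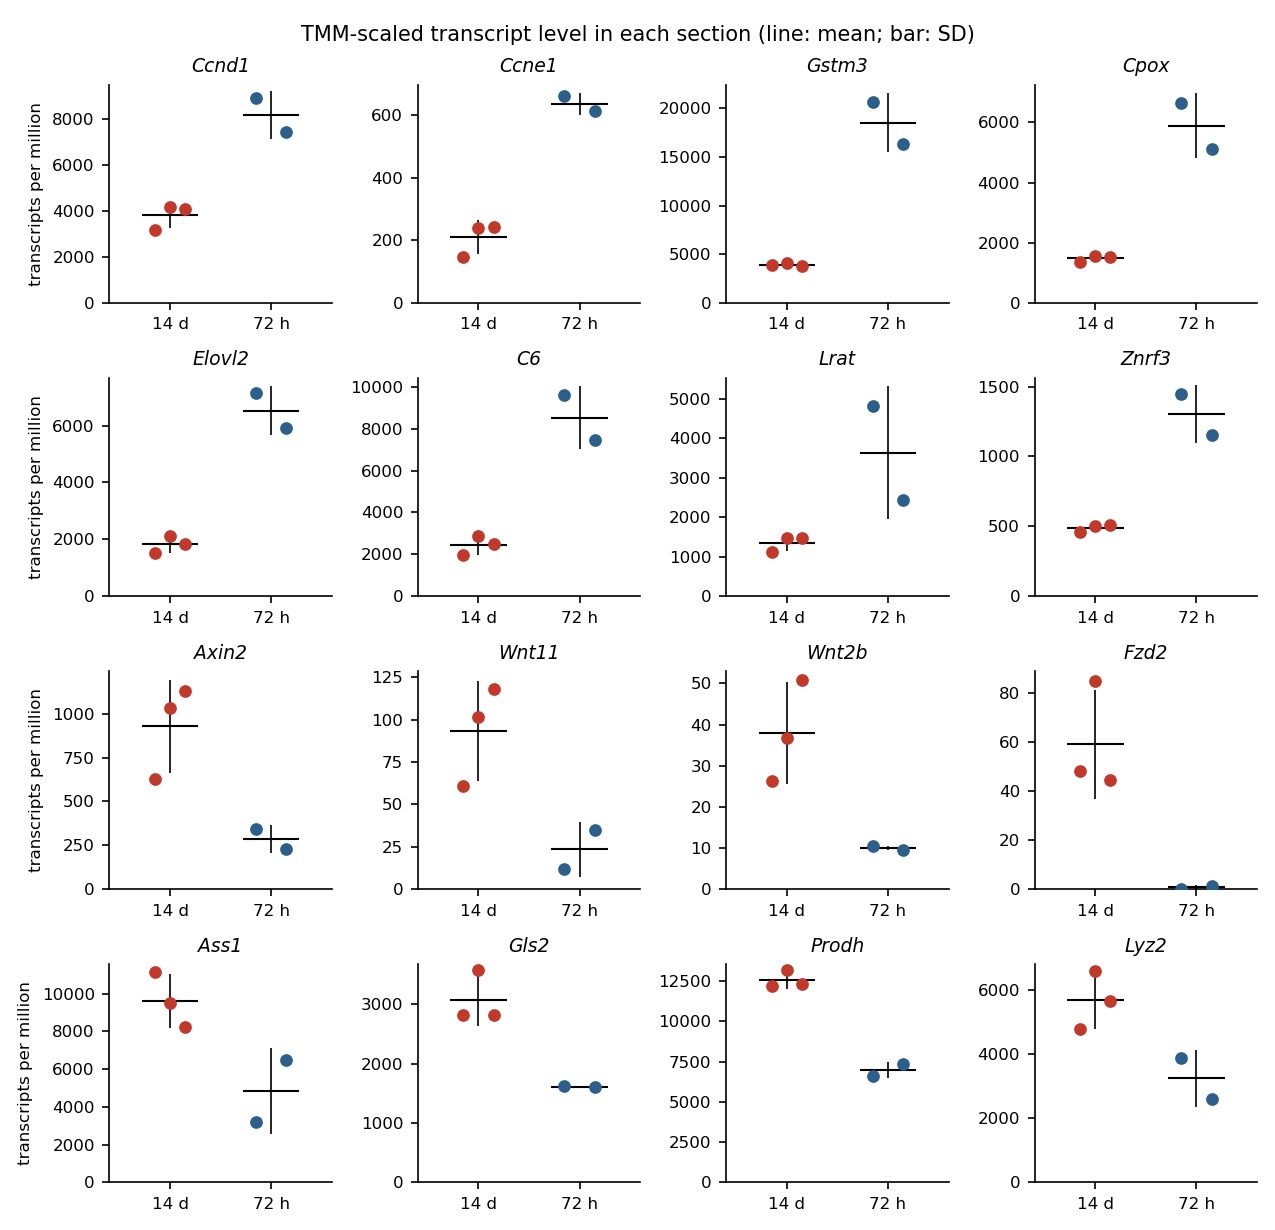
TMM-scaled level (CPM, linear axes from 0) of 16 genes in each section, with the 14 d sections left and the 72 h sections right; points are sections, horizontal lines means and vertical bars SD. The first 8 genes lie lower in all 3 of the 14 d sections than in both 72 h sections, and the last 8 lie higher.

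Of the 4 cyclin genes, 2 fell and none rose by TMM scaling, where 17.2% of all genes fell, and none passed per cell. Ccnd1, which encodes the G1 cyclin D1, stood at 3176, 4162 and 4093 CPM in the 14 d sections, against 8908 and 7434 CPM in the 72 h sections. Every 14 d section lay below both 72 h sections, as for 37.4% of all genes tested, and Ccnd1 fell by 1.10 ± 0.23 in log2 (adjusted p = 0.0018). Ccne1, the cyclin of the entry into S phase, had 146, 239 and 242 CPM at 14 d, against 661 and 612 CPM at 72 h, a fold change of -1.60 ± 0.52 in log2 (adjusted p = 0.036). Both changed in the same direction, and the groups did not overlap. The call of Ccne1 ended without 14 d section 1 or 2 or either 72 h section, and that of Ccnd1 ended only with the 14 d sections as 1 library. Ccna1, a cyclin of germ cells, had only 17, 25 and 30 counts at 14 d, against 9 and 20 at 72 h, and mitotic Ccnb1 5, 12 and 4 at 14 d, against 0 and 5 at 72 h. At such counts neither showed a detectable difference. Per cell, Ccnd1 stood at 2.61, 2.84 and 2.27 transcripts at 14 d, against 4.29 and 3.29 at 72 h, and its difference did not pass that test (log2 -0.56 ± 0.32, adjusted p = 0.21). Ccnd1 at 0 h averaged 2133 CPM, below the 14 d level, and Ccne1 146 CPM.

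The 4 genes that fell under both scalings have different metabolic and immune roles. Gstm3, a glutathione transferase that detoxifies electrophiles, had 3909.8, 4104 and 3739.5 CPM at 14 d, against 20674 and 16367 CPM at 72 h. The fold change was -2.24 ± 0.22 in log2 (adjusted p = 3e-07), and per cell -1.67 ± 0.28 (adjusted p = 0.0018). The 14 d sections lay within a narrow band, far below both 72 h sections, and the level was lower in all 3 lobular zones described further on. Cpox, the coproporphyrinogen oxidase of heme synthesis, had 1345, 1552 and 1529 CPM at 14 d, against 6666 and 5132 CPM at 72 h (-1.999 ± 0.252 in log2, adjusted p = 5.3e-06). Elovl2, which elongates polyunsaturated fatty acids, had 1522, 2109 and 1833 CPM at 14 d, against 7144 and 5913 CPM at 72 h (-1.84 ± 0.24 in log2, adjusted p = 6.8e-06). C6, a component of the complement membrane attack complex, had 1938, 2864 and 2481 CPM at 14 d, against 9599.8 and 7458 CPM at 72 h (-1.81 ± 0.26 in log2, adjusted p = 2.3e-05). In each of these 4 genes the groups did not overlap, as for 37.4% of all genes tested in the lower direction in CPM and 14.1% per cell. Per cell, the calls of Cpox and Elovl2 ended without 14 d section 1 or 2 or 72 h section 1, and that of C6 without any single one of the 5 sections.

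The 4 genes stood differently to the uninjured level. Gstm3 averaged 2063 CPM at 0 h, so its 14 d level lay between those of 0 h and 72 h. At 0 h, Elovl2 averaged 5761 CPM, C6 16930.2 CPM and Cpox 3677 CPM. In CPM each lay lower at 14 d than at 0 h and 72 h alike. Per cell this held for C6, whereas the 14 d and 0 h sections of Elovl2 and Cpox overlapped. Of the 17 genes lower at 14 d, 9 had a mean CPM nearer to the 0 h mean at 14 d than at 72 h, and 8 did not. Among the 10 higher genes, 3 were nearer and 7 were not, and among all 99 genes tested, 39 were nearer.

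Both heme genes of the panel fell by TMM scaling, where 17.2% of all genes tested fell. Alad, which forms porphobilinogen, stood at 8057, 9975 and 9719.5 CPM at 14 d, against 18599.5 and 18078 CPM at 72 h (-0.99 ± 0.22 in log2, adjusted p = 0.0021). The median log2 change of that pair was -1.49, beside -0.12 over all genes tested. Of the 4 fatty acid and lipid droplet genes, Elovl2 alone fell. Fads1, a desaturase, did not pass (-0.36 ± 0.24, adjusted p = 0.28), nor did the lipid droplet genes Hsd17b13 and Cidea. Cpt2, which carries long-chain fatty acids into mitochondria for oxidation, fell to 3905, 5352 and 5323 CPM at 14 d, against 8927 and 8096 CPM at 72 h (-0.81 ± 0.23 in log2, adjusted p = 0.014). Per cell the Cpt2 groups overlapped, and the TMM call ended without 14 d section 1 or 72 h section 1. Its companions in energy metabolism, Atp5a1 of the ATP synthase and Uqcrh of complex III, did not pass.

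Plasma protein genes of the liver were lower or did not pass. Vitronectin (Vtn), an adhesive protein of plasma that also restrains complement, had 46137, 65593 and 61061 CPM at 14 d, against 103084 and 94077 CPM at 72 h (-0.78 ± 0.25 in log2, adjusted p = 0.03). Igfbp2, a binding protein of insulin-like growth factors, had 12299.5, 10906 and 9810.0 CPM at 14 d, against 20329.5 and 26293 CPM at 72 h (-1.08 ± 0.24 in log2, adjusted p = 0.0021). Neither passed per cell, where their groups overlapped. The Vtn call ended under 14 of 19 alternatives, among them RLE scaling, DESeq2, both other filters and the loss of 14 d section 1 or either 72 h section, and the Igfbp2 call without either 72 h section. C8b, another gene of the membrane attack complex, stood at 9769.9, 11038 and 9454 CPM at 14 d, against 9312 and 9533 CPM at 72 h and did not pass. Igf1 and Igfals did not pass, nor did any of the 3 genes of high-density lipoprotein (Apof, Apom, Pon1).

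Of the 5 drug and glutamine genes that are typical of central hepatocytes, Cyp2e1 and Cyp1a2 fell under TMM scaling and none rose. By that scaling 17.2% of all genes tested fell. None of the 5 passed per cell. Cyp2e1, which oxidises ethanol and small drugs, had 119831, 135740 and 129742 CPM at 14 d, against 256043 and 194356 CPM at 72 h (-0.81 ± 0.22 in log2, adjusted p = 0.0089). Per cell it had 98.6, 92.7 and 72 transcripts at 14 d, against 123 and 85.9 at 72 h, and these groups overlapped. Cyp1a2, which metabolises caffeine, had 2045, 2259 and 1883 CPM at 14 d, against 3749 and 4041 CPM at 72 h (-0.92 ± 0.25 in log2, adjusted p = 0.01). The Cyp2e1 call ended under 10 of 19 alternatives, among them RLE scaling, other filters, the position lists and the loss of 14 d section 1 or 72 h section 1, and the Cyp1a2 call without either 72 h section. Glul, the glutamine synthetase of the cells next to the central vein, had 4266, 3778 and 2906 CPM at 14 d, against 5972 and 4420.3 CPM at 72 h. The Glul groups lay apart but the difference did not pass (-0.51 ± 0.32, adjusted p = 0.25). Oat, the ornithine aminotransferase of the same cells, ranged from 3986 to 7349.7 CPM at 14 d, against 5654 and 3298 CPM at 72 h, and overlapped. Cyp27a1, a cytochrome P450 of bile acid synthesis, did not pass (0.57 ± 0.26 in log2, adjusted p = 0.11), but was called higher with RLE scaling and by DESeq2. The bile acid genes Cyp7a1 and Cyp8b1 and the taurine gene Csad did not pass. Cyp7a1, which controls the rate of bile acid synthesis, reached 2566, 3409.7 and 2639.6 CPM at 14 d, against 1954 and 1233 CPM at 72 h, with a standard error of 1.36 on a log2 change of 0.85. Gstm1 and Gstm2, relatives of Gstm3, did not pass, with log2 changes of -0.04 and 0.11.

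Of the 4 urea cycle and glutaminase genes, 2 rose and 1 fell by TMM scaling, beside 10.1% and 17.2% of all genes tested. Ass1, which joins citrulline and aspartate in the urea cycle, had 11131, 9483 and 8236 CPM at 14 d, against 3215 and 6462 CPM at 72 h (0.99 ± 0.28 in log2, adjusted p = 0.014). Gls2, the liver glutaminase that frees ammonia from glutamine, had 2818, 3574 and 2824 CPM at 14 d, against 1617 and 1607 CPM at 72 h (0.93 ± 0.27 in log2, adjusted p = 0.015). Prodh, which starts proline breakdown, had 12202, 13222 and 12323 CPM at 14 d, against 6640.2 and 7331 CPM at 72 h (0.85 ± 0.28 in log2, adjusted p = 0.031). Prodh is an amino acid gene that was not portal here. Its log2 ratio of the central over the portal zone was 0.28 ± 0.0853 (SD) at 14 d, against 0.82 ± 0.0894 (SD) at 72 h. Ass1, Gls2 and Prodh rose per cell as well, Ass1 by 1.61 ± 0.40, Gls2 by 1.50 ± 0.38 and Prodh by 1.42 ± 0.42 in log2. Arg1, the arginase that closes the urea cycle, fell to 8039, 8069 and 6094 CPM at 14 d, against 11201 and 11567 CPM at 72 h (-0.62 ± 0.23 in log2, adjusted p = 0.045). Per cell its log2 change was -0.02 ± 0.33, and 17 of 19 TMM alternatives, the loss of any single section among them, ended the Arg1 call. Cps1, the first enzyme of the cycle, did not pass (-0.33 ± 0.22, adjusted p = 0.27). The Ass1 call ended without 14 d section 1 or 72 h section 1, and in a fit of the 14 d and 72 h sections only (adjusted p = 0.083). The Gls2 call ended without 14 d section 2 or either 72 h section, and the Prodh call without 14 d section 1 or 2 or either 72 h section. Per cell, the Ass1 call ended without 14 d section 1 or 2 or 72 h section 1, and those of Gls2 and Prodh without 14 d section 1 or 2 or either 72 h section. Hpd and Slc16a10, the other amino acid genes, did not pass.

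Of the gluconeogenesis genes, Pck1 and G6pc did not pass under either scaling. Pck1 had 132592, 163503 and 159914 CPM at 14 d, against 141441 and 159110 CPM at 72 h, and G6pc 2950.2, 3917 and 4092 CPM at 14 d, against 8515 and 13178 CPM at 72 h. Fbp1, the fructose bisphosphatase, passed per cell and not by TMM scaling, with 32.7, 34 and 26.1 transcripts per cell at 14 d, against 16.2 and 15.4 at 72 h (0.97 ± 0.25 in log2, adjusted p = 0.016). Epas1, a transcription factor of the response to low oxygen, likewise passed per cell and not by TMM scaling, with 5.47, 6.08 and 4.55 transcripts at 14 d, against 2.9 and 2.21 at 72 h (1.07 ± 0.30 in log2, adjusted p = 0.024). Both calls ended without 14 d section 1 or 2 or either 72 h section. Ndufb10, a subunit of respiratory complex I, had 4415, 5713 and 5065 CPM at 14 d, against 2968 and 3183 CPM at 72 h (0.72 ± 0.25 in log2, adjusted p = 0.041). That TMM call ended with the loss of any single section. The regucalcin gene Rgn, Arnt and Hif1a of the response to low oxygen, and Gpc1, Mogat1, Lgr4 and Sulf2 did not pass.

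**Figure D2:**
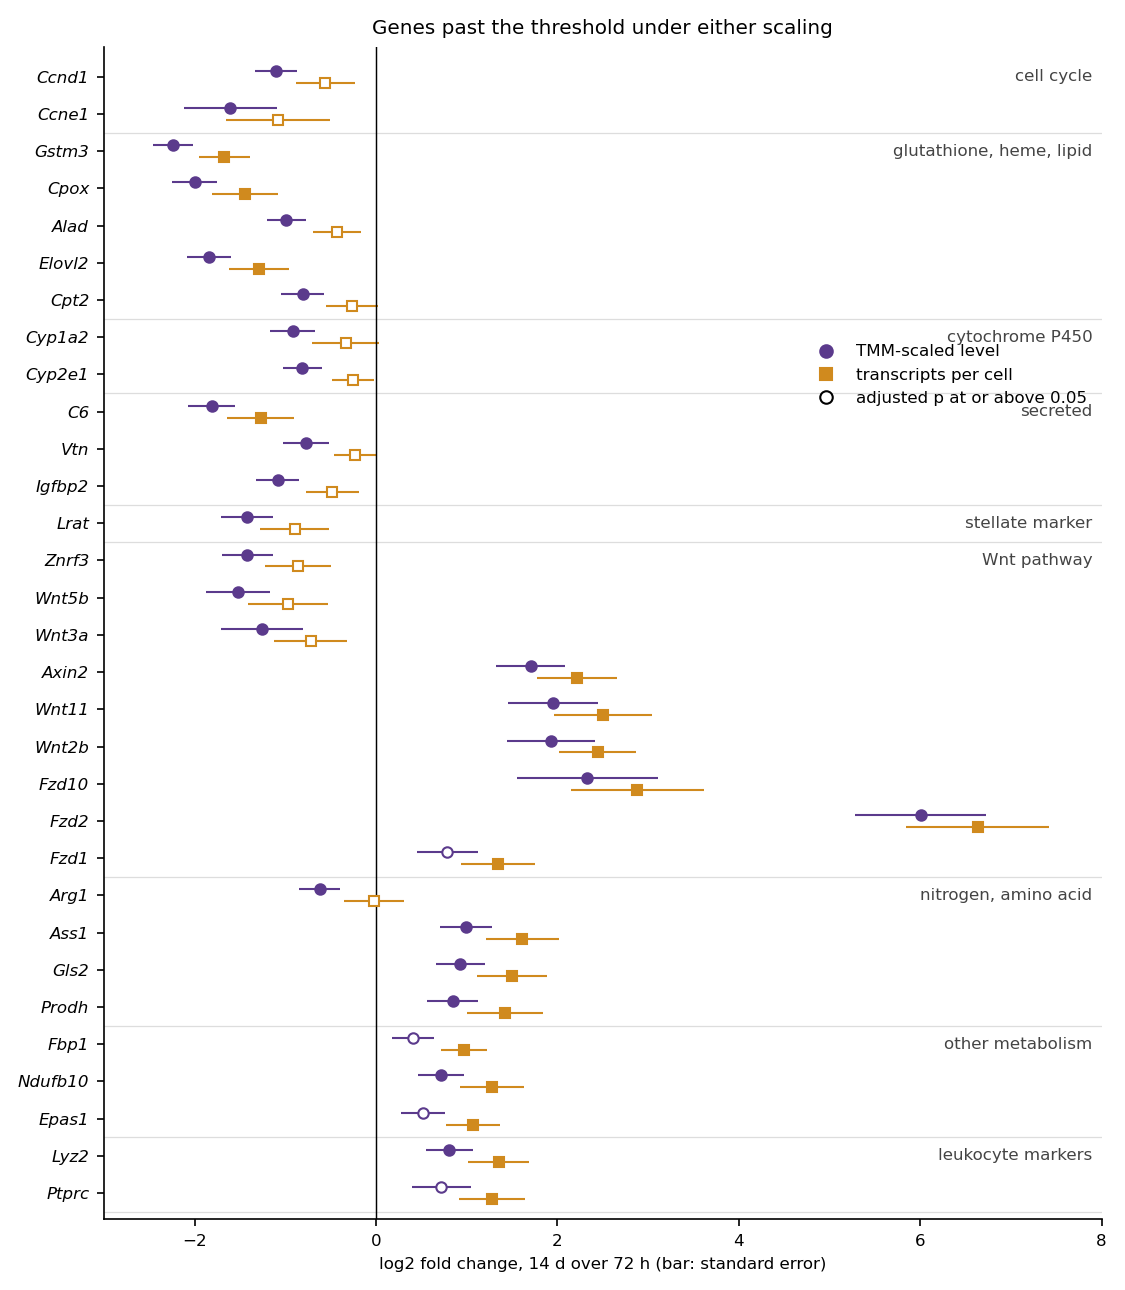
Log2 fold change, 14 d over 72 h, of the 31 genes past the threshold under either scaling, grouped by role. Circles give the TMM-scaled level, squares transcripts per cell, bars the standard error, and open symbols an adjusted p at or above 0.05. Squares lie to the right of circles by about the shift of 0.56 between the scalings.

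Among the hepatic targets and regulators of the Wnt pathway, Axin2 rose and Znrf3 fell. Axin2 rose to 626, 1030.2 and 1127 CPM at 14 d, against 341 and 227 CPM at 72 h (1.71 ± 0.38 in log2, adjusted p = 0.0021), and per cell by 2.22 ± 0.44 in log2 (adjusted p = 0.0049). The lowest 14 d section lay above both 72 h sections, as for 25.3% of all genes tested. Znrf3 fell to 458, 499 and 506 CPM at 14 d, against 1451 and 1157 CPM at 72 h (-1.42 ± 0.28 in log2, adjusted p = 0.0011), a TMM call that ended only with the 14 d sections as 1 library. Per cell, Znrf3 did not pass (-0.86 ± 0.36, adjusted p = 0.12). Of the 6 hepatic Wnt targets in the panel, these were the 1 that rose and the 1 that fell. Of all genes tested, 10.1% rose and 17.2% fell. Lect2, Tbx3, Rnf43 and the R-spondin receptor gene Lgr5 did not pass, and the median log2 change of the 6 was -0.63, beside -0.12 over all genes. The 2 R-spondin genes in the panel did not pass, with Rspo3, made by central vein endothelium, at 131, 158 and 132 CPM at 14 d, against 286 and 119.6 CPM at 72 h. Neither co-receptor gene passed, with Lrp6 at -0.55 ± 0.24 (adjusted p = 0.1). The Axin2 call ended without 72 h section 2 (adjusted p = 0.060).

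Of 18 Wnt ligand genes tested, 2 rose and 2 fell, beside 10.1% and 17.2% of all genes tested, so the share that rose was close to that of all genes and the share that fell was below it. Wnt11, a ligand best known for beta-catenin-independent signalling, had 572, 1086 and 1034 counts at 14 d, against 28 and 176 at 72 h. This corresponded to 60.6, 102 and 118 CPM at 14 d, against 12.1 and 35.1 CPM at 72 h (1.95 ± 0.50 in log2, adjusted p = 0.0062). Wnt2b had 248, 393 and 447 counts at 14 d, against 24 and 48 at 72 h (1.93 ± 0.48 in log2, adjusted p = 0.0054). The higher counts stood in every 14 d section for both genes, and both also rose per cell. Wnt5b fell to 483, 621 and 643 CPM at 14 d, against 1608 and 1736 CPM at 72 h (-1.52 ± 0.35 in log2, adjusted p = 0.0026). Wnt3a, at 39, 66 and 63 counts at 14 d, against 28 and 78 at 72 h, fell by 1.26 ± 0.45 in log2 (adjusted p = 0.045), a call that ended with the loss of any single section. Wnt2, from central vein endothelium, stood at 269, 304 and 262 CPM at 14 d, against 450.2 and 303 CPM at 72 h and overlapped. Wnt9b, from the same cells, did not pass. The Wnt11 call ended without 72 h section 1 (adjusted p = 0.053) and the Wnt2b call without 72 h section 2 (adjusted p = 0.060). Wnt3 was too rare to be tested, and the other 12 ligand genes tested did not pass.

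Of 10 Frizzled receptor genes, 2 rose by TMM scaling (10.1% of all genes) and 3 per cell (14.1% of all genes). The 2 called under both scalings had very low counts at 72 h. Fzd2 had 454, 905 and 390 counts at 14 d, against 0 and 7 counts at 72 h. The ratio of the summed counts, corrected for library size, was 63.3, with an exact 95% binomial interval of 30.7 to 158 that covers counting error only (adjusted p = 3.8e-06). The 8 sections from other times, on slides 1 and 2, held 0 to 21 Fzd2 counts each, so the 3 sections of slide 3 stood above all 10 others. Fzd10 had 29, 72 and 67 counts at 14 d, against 0 and 9 counts at 72 h, a ratio of 4.73 (2.43 to 10.5, adjusted p = 0.032). Its call ended without 14 d section 2 or 3 or 72 h section 1. Fzd1 passed per cell and not by TMM scaling, with 0.668, 0.613 and 0.498 transcripts per cell at 14 d, against 0.274 and 0.194 at 72 h (1.34 ± 0.41 in log2, adjusted p = 0.03), a call that ended without 14 d section 1 or 2 or either 72 h section. The other 7 receptor genes did not pass. As a share of all transcripts, 8 of the 10 genes higher at 14 d stood in every 14 d section above all 10 other sections of the series, against 20 of the 100 panel genes. These 8 were Ass1, Axin2, Fzd10, Fzd2, Gls2, Ndufb10, Wnt11 and Wnt2b. The 10 genes were called against 2 of those 10 sections, so part of that share follows from the choice. Of the 17 genes lower at 14 d, 4 stood below all 10 other sections, against 5 of the 100 panel genes.

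Markers of other cell types gave mixed differences. The panel held 2 of 5 macrophage, 1 of 3 leukocyte, 4 of 6 endothelial, 1 of 4 stellate and 1 of 4 cholangiocyte markers listed, none of them at 0 in any of the 5 sections. The endothelial markers (Pecam1, Wnt2, Wnt9b, Rspo3) summed to 4124, 5439.7 and 5271 CPM at 14 d, against 5428 and 4062 CPM at 72 h, and the macrophage markers (Adgre1, Lyz2) to 5297, 7373 and 6225 CPM at 14 d, against 4989 and 3646 CPM at 72 h. Lyz2, the lysozyme of macrophages and neutrophils, had 4783, 6589.8 and 5661 CPM at 14 d, against 3879 and 2607 CPM at 72 h (0.81 ± 0.26 in log2, adjusted p = 0.028). Ptprc, the leukocyte antigen CD45, passed per cell and not by TMM scaling, with 0.794, 0.902 and 0.571 transcripts per cell at 14 d, against 0.353 and 0.268 at 72 h (1.28 ± 0.37 in log2, adjusted p = 0.024). Adgre1, the F4/80 antigen that marks Kupffer cells, went the other way in CPM, with 514, 784 and 564 CPM at 14 d, against 1110.0 and 1039 CPM at 72 h, and did not pass (-0.79 ± 0.33, adjusted p = 0.086). Lrat, which stores vitamin A in stellate cells, fell to 1117, 1480.4 and 1472 CPM at 14 d, against 4834 and 2445 CPM at 72 h (-1.42 ± 0.29 in log2, adjusted p = 0.0011). Both 72 h sections lay above all 14 d sections, though they differed from each other by more than the 14 d sections did. Pecam1, an endothelial marker, did not pass, with 3570.2, 4830.3 and 4718 CPM at 14 d, against 4444 and 3449 CPM at 72 h. The Lyz2 call ended without 14 d section 2 or 72 h section 2, and the Ptprc call without 14 d section 1 or 2 or either 72 h section. The bile duct and progenitor marker Sox9 and the Hippo effector Yap1 did not pass, with log2 changes of 0.04 and 0.03, nor did the claudins Cldn2 and Cldn7.

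The company of Lyz2 also differed. In cells reduced at random to 200 transcripts each, cells with Lyz2 held 16.7, 14.7 and 15.6 times as much Adgre1 as cells without it at 14 d, against 45.5 and 54.4 times at 72 h. Cells with Lyz2 made up 23.1, 25.2 and 23.7% of these cells at 14 d, against 18.1 and 14.3% at 72 h. In all cells without the reduction the shares were 30.4, 32.6 and 29.3% at 14 d, against 23 and 19.6% at 72 h. Cells with Pecam1 held 37.1, 29.1 and 21.6 times as much Wnt9b as cells without it at 14 d, against 16.6 and 34.7 times at 72 h, and these ratios overlapped. These ratios are examples among the genes compared in this way and are descriptions, with no test.

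Position along the lobule was read from the cells themselves. Cells with at least 200 transcripts, between 90.5% and 94.5% of cells at 14 d, against 86.5% and 91.2% at 72 h, were reduced to 200 transcripts. They were then ordered by the mean level of 9 central genes minus that of 6 portal genes, always without the gene under study, and cut into a portal, a middle and a central zone of equal cell number. The central and the portal zone each held 3600, 4929 and 4773 cells at 14 d, against 1456 and 3272 at 72 h. A score was closely shared by neighbours: its Spearman correlation with the mean score of the 6 nearest cells was 0.91, 0.88 and 0.86 at 14 d, against 0.92 and 0.89 at 72 h, as a description of the cells.

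Central-to-portal ratios lay nearer to 0 at 14 d than at 72 h for most genes zoned at 0 h, though only 3 of 54 differences passed. Of 11 genes that were at least 1 log2 unit higher in the central zone at 0 h, 10 had a central-to-portal ratio nearer to 0 at 14 d than at 72 h, with Gstm3 the exception. Of 21 genes at least 1 log2 unit higher in the portal zone at 0 h, all 21 had a ratio nearer to 0 at 14 d. Of the 22 genes between these limits, 13 had a ratio nearer to 0 at 14 d. With Cyp2e1 left out of totals and score these counts were 9 of 10, 18 of 21 and 12 of 22. For the portal genes the median log2 ratio was -1.18 at 14 d, against -1.97 at 72 h, and for the central genes 2.44 at 14 d, against 2.50 at 72 h. The median of the differences within a gene was 0.68 for the portal and -0.55 for the central genes, and 0.21 for the genes between. In the central zone Cyp2e1 had 359, 349 and 350 transcripts per 1000 at 14 d, against 506 and 436 at 72 h. Medians without Cyp2e1 were not computed, and the part of Cyp2e1 in these differences was not tested. In limma, with the spread pooled over all times, 1 ratio was higher at 14 d (1.85% of 54 genes) and 2 were lower (3.7%). Oat stood at 4.28 ± 0.19 (SD) at 14 d, against 5.74 ± 0.57 (SD) at 72 h, a difference of -1.46 ± 0.34 (SE, adjusted p = 0.037). Gstm2 stood at 1.10 ± 0.0427 (SD) at 14 d, against 2.26 ± 0.0284 (SD) at 72 h, a difference of -1.16 ± 0.24 (SE, adjusted p = 0.037). Sox9, portal at 72 h, stood at -0.48 ± 0.23 (SD) at 14 d, against -3.26 ± 1.44 (SD) at 72 h, a difference of 2.78 ± 0.62 (SE, adjusted p = 0.037). The Sox9 difference was 1.63 with Cyp2e1 left out, 1.76 without 72 h section 1 and 3.79 without 72 h section 2. Cldn7, a claudin of bile duct cells, had 0.188, 0.244 and 0.157 transcripts per 1000 in the central zone at 14 d, against 0.0172 and 0.0244 at 72 h. These 72 h values rest on 5 and 16 transcripts. Cells with Sox9 held 44.8, 40.3 and 20.7 times as much Cldn7 as cells without it at 14 d, against 76.3 and 44.8 times at 72 h, and the part of bile duct cells in the Sox9 ratio was not tested. The groups did not overlap for the ratios of Oat, Gstm2 and Sox9, as for 57.4% of genes in the higher and 22.2% in the lower direction. None of the 3 calls held when any 14 d section or 72 h section 1 was left out, and without 72 h section 2 only the Sox9 call held. With the outer 20% of cells at each end as zones, limma called 0 genes, with 11 higher and 5 lower at an unadjusted p under 0.05.

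**Figure D3:**
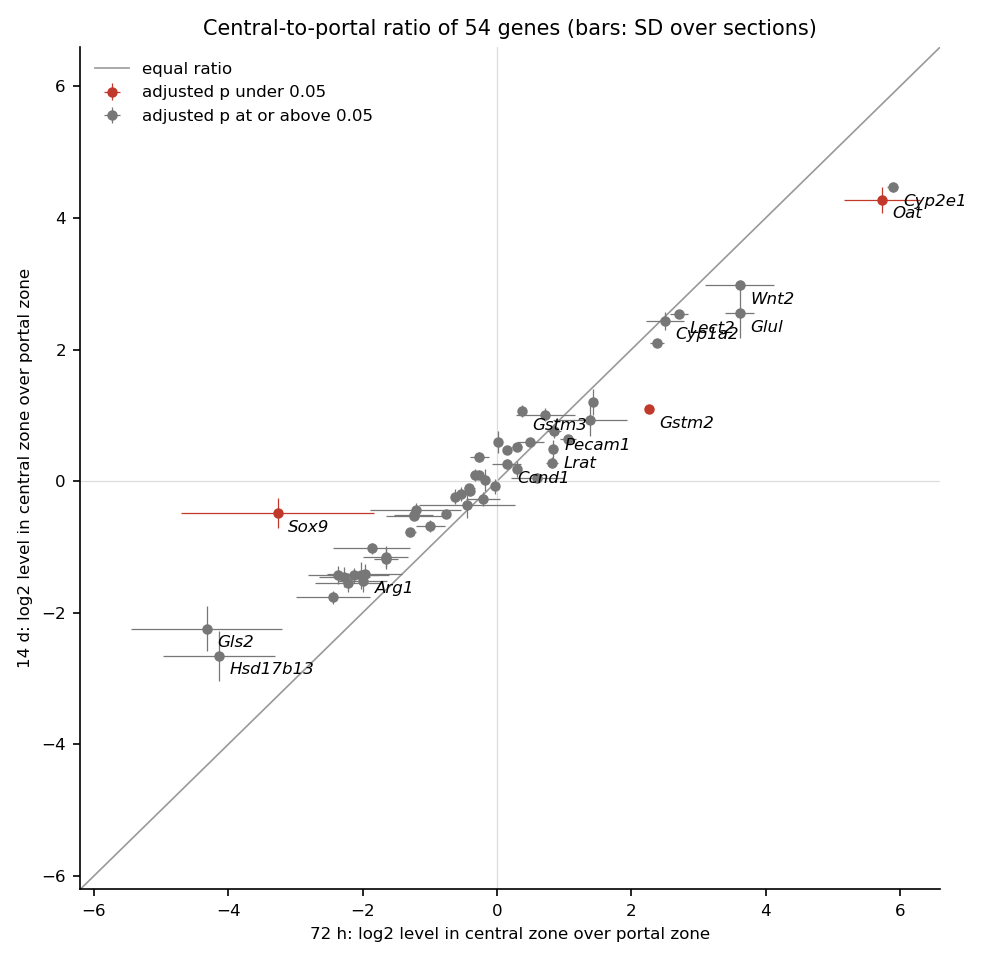
Log2 ratio of the level in the central zone over that in the portal zone, at 14 d (vertical axis) and 72 h (horizontal axis), for 54 genes; points are means, bars SD over 3 and 2 sections, red marks an adjusted p under 0.05. Most central genes at the upper right lie below the diagonal and portal genes at the lower left above it, nearer to 0 at 14 d. Cyp1a2 lies almost on the diagonal (2.44 at 14 d, 2.50 at 72 h). Gstm3, central at 0 h, lies above it (1.07 at 14 d, 0.37 at 72 h).

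The zones show where transcripts were found. Axin2 had 0.536, 0.974 and 1.28 transcripts per 1000 in the portal zone at 14 d, against 0.0412 and 0.0336 at 72 h. In the central zone it had 1.41, 1.42 and 1.51 per 1000 at 14 d, against 0.752 and 0.556 at 72 h. The mean was thus 24.9 times as high at 14 d in portal cells and 2.21 times as high in central cells. The portal values rest on 386, 960 and 1224 Axin2 transcripts at 14 d, against only 12 and 22 at 72 h. Cells with Axin2 made up 9.83, 17.3 and 21.2% of the portal zone at 14 d, against 0.824 and 0.672% at 72 h. They made up 22.4, 23.4 and 24.7% of the central zone at 14 d, against 12.5 and 9.81% at 72 h. Axin2 was too rare for the ratio test above. With the minimum lowered to 100 transcripts in every section, which admits 65 genes, its log2 ratio was 0.72 ± 0.60 (SD, n = 3) at 14 d, against 4.03 ± 0.066 (SD, n = 2) at 72 h. That difference was -3.31 ± 0.35 (SE, limma adjusted p = 0.00051). The same fit called 2 genes higher (Lgr4, Sox9) and 3 lower (Axin2, Gstm2, Oat). At this minimum no fit was run with a section or Cyp2e1 left out, so the stability of the Axin2 call was not tested.

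Of the 21 genes that were portal at 0 h, 13 had a higher level in the central zone in every 14 d section than in both 72 h sections and 2, Elovl2 and Wnt5b, had a lower one. Of all 54 genes, 42.6% were higher there and 25.9% lower in this way. Of the 11 genes that were central at 0 h, 5 had a higher level in the portal zone at 14 d (Cyp2e1, Glul, Gstm2, Oat, Rgn) and 2 a lower one (Cyp1a2, Gstm3), beside 40.7% higher and 38.9% lower of all 54 genes. The following examples were chosen after their values were seen. Gls2, a portal gene, had 0.96, 1.25 and 1.25 per 1000 in the central zone at 14 d, against 0.0859 and 0.246 at 72 h. Sox9 had 0.556, 0.818 and 0.687 per 1000 there at 14 d, against 0.0515 and 0.156 at 72 h. These 72 h values rest on 25 and 161 Gls2 transcripts and 15 and 102 Sox9 transcripts. In the portal zone, Oat had 1.2, 0.928 and 0.714 per 1000 at 14 d, against 0.378 and 0.134 at 72 h. Cyp2e1 had 15.5, 15.7 and 16.7 per 1000 there at 14 d, against 8.19 and 7.62 at 72 h. Glul had 1.98, 2.11 and 1.43 per 1000 there at 14 d, against 1.4 and 0.889 at 72 h. In these 5 examples, chosen among the higher ones, the 14 d sections lay above both 72 h sections. The part of transcripts assigned to a neighbouring cell in these values was not tested. Gstm3, which fell in the section sums, had 4.12, 3.47 and 3.16 per 1000 in the portal zone at 14 d, against 18 and 15.3 at 72 h. In the central zone Gstm3 had 8.22, 7.18 and 7.1 at 14 d, against 23.5 and 19.5 at 72 h.

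**Figure D4:**
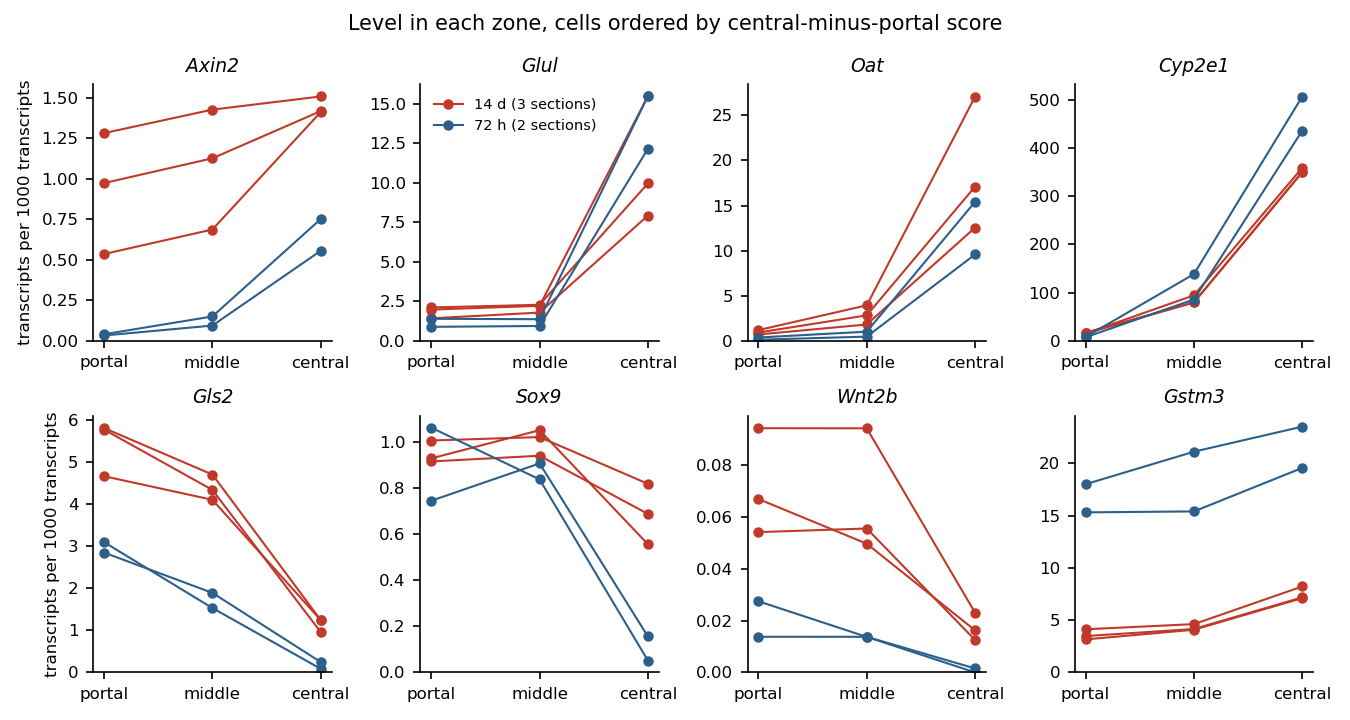
Transcripts per 1000 of a cell's transcripts in the portal, middle and central zone of the cells, for 8 genes; each line is a section, red 14 d and blue 72 h, on linear axes from 0. Axin2 lines lie higher at 14 d in every zone, with 0.536 to 1.28 in the portal zone at 14 d, against 0.0336 and 0.0412 at 72 h.

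The cells that held Axin2 differed accordingly. At 14 d cells with Axin2 held 2.59, 1.88 and 1.79 times as much Glul as cells without it, against 5.43 and 6.12 times at 72 h. For Oat the ratios were 1.96, 1.48 and 1.33 at 14 d, against 4.58 and 5.62 at 72 h. For Cyp2e1 they were 1.45, 1.15 and 1.03 at 14 d, against 2.19 and 2.56 at 72 h. In all 3 the 14 d ratios lay nearer to 1 than both 72 h ratios. Conversely, for Sox9 the ratios were 1.17, 1.27 and 1.4 at 14 d, against 0.282 and 0.281 at 72 h, above 1 in every 14 d section and below 1 in both 72 h sections. Glul, Oat, Cyp2e1 and Sox9 are examples among the genes compared with Axin2 in this way, with no test, and the other genes are not given here. For Wnt2b and Fzd2 such ratios could be formed at 14 d only, as too few cells held them at 72 h. Of cells with at least 200 transcripts reduced to 200, 0.815, 0.872 and 1.39% held Wnt2b at 14 d, against 0.275 and 0.194% at 72 h, and 1.02, 1.51 and 0.635% held Fzd2 at 14 d, against 0 and 0.0204% at 72 h. At 72 h section 1 the 0 Fzd2 transcripts of 4370 reduced cells allow a share with a detected transcript of up to 0.0687%. This does not bound the share of cells that express Fzd2. In the 2 of the 14 d sections with at least 100 such cells, cells with Fzd2 held 3.42 and 4.15 times as much Sox9 and 0.528 and 0.598 times as much Cyp2e1 as the other cells. Sox9 and Cyp2e1 are examples among the genes compared in this way, and no cell type is assigned to cells with Fzd2. Cells with Wnt2b, in the 2 sections with at least 100 of them, held 0.260 and 0.276 times as much Cyp2e1.

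**Figure D5:**
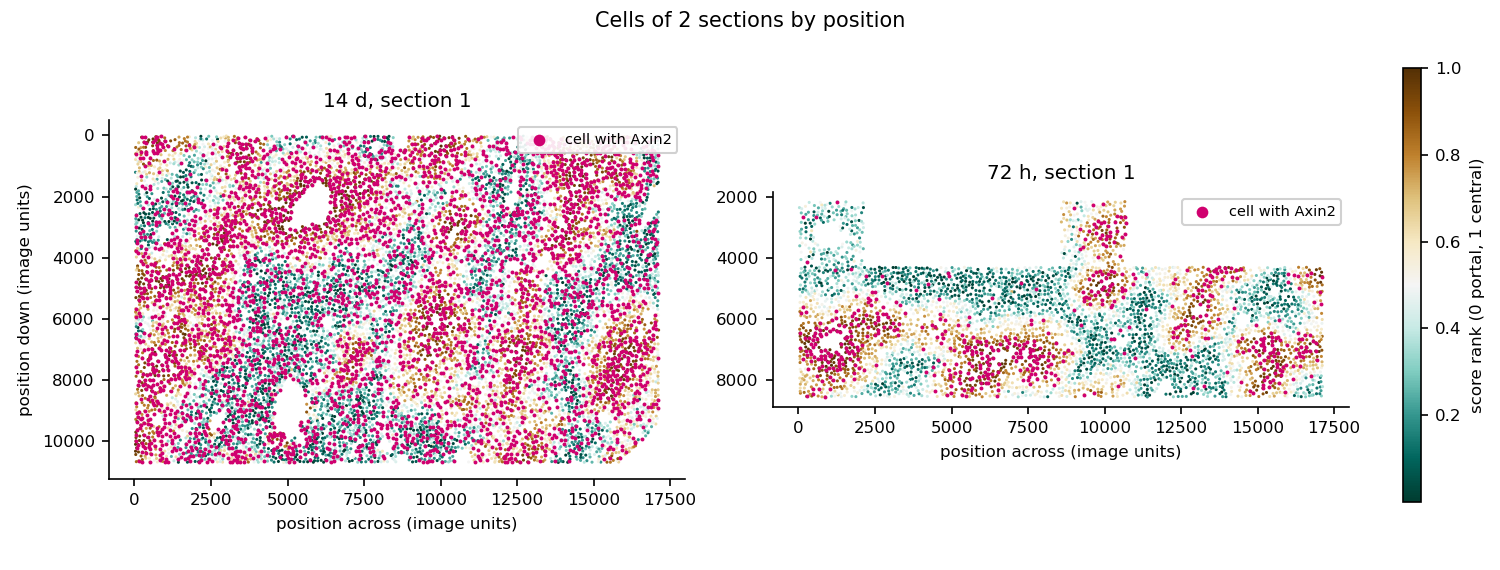
Positions of cells with at least 200 transcripts in 14 d section 1 (left) and 72 h section 1 (right), in image units of unstated length, coloured by the rank of the central-minus-portal score computed without Axin2; magenta marks cells with an Axin2 transcript. Such cells, 36.0% of 10800 at 14 d, against 12.5% of 4370 at 72 h without evening out depth, are spread over the 14 d section and gather in the central areas at 72 h.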

How the data were processed

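Per the labels, Resolve Biosciences performed Molecular Cartography on frozen sections of regrown liver lobes. The authors deposited whole-number transcript counts per gene and cell for each section, and for most sections a list of transcript positions. How transcripts were decoded and cells outlined, and the length unit, are not given in the sources used here. Cell names were read as the 2 coordinates of a cell. Position lists, in which the lines of each gene were counted, were used as an alternative for the libraries. For 14 d section 3 no list was used, so that alternative also left this section out.

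Counts were summed per section. Both 24 h sections carried no number and were summed to 1 library, which gave 12. A gene needed 10 or more counts in 2 or more libraries, which 99 of 100 met. The quasi-likelihood test of edgeR 4.0.16 (R 4.3.3) was fitted with TMM scaling and robust dispersions to all 7 times, leaving 5 residual degrees of freedom. P-values were adjusted by Benjamini-Hochberg over all genes of a fit, with a threshold of 0.05. For transcripts per cell the cell number replaced the library size. Standard errors were derived from the F statistic, as the log2 fold change over the root of F. For the lobule, cells were thinned to 200 transcripts, and log2 ratios of the central over the portal zone were tested in limma 3.58.1, with a pseudocount of 1 transcript per zone, where every section kept 300 or more transcripts of the gene. Section totals ran from 2456278 to 9619206 transcripts in the 5 sections compared, so at abundant genes the number of sections limits precision and at rare genes the counts do. Both tests were checked on data simulated with independent sections and no slide effect. That check therefore does not bear on shared animals or on slide.

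The text names every gene past the threshold by TMM scaling or per cell, and Ccnd1, Ccne1, Ccnb1, Ccna1, Glul, Cyp2e1, Axin2, Wnt2, Rspo3, Adgre1, Pecam1 and Lrat, and for the lobule up to 5 genes past the threshold each way. Further genes are named as members of the role lists. The comparison, genes and lists were chosen with earlier results of these data known. Alternatives were other scalings (total count, RLE, TMM without Cyp2e1), DESeq2 1.42.0, other filters, the slide or section number as a block, other samples in the fit, leaving out each section, and other settings of the zones.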

Additional observations from a re-analysis of the deposited data

How the results depend on the processing

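None of the 27 genes called by TMM scaling, 18 called per cell and 3 called by ratio changed sign under any alternative run. Under TMM scaling 5 of the 27 kept their call in all of them, 4 more (Alad, Ccnd1, Lrat, Znrf3) lost it only with the 14 d sections as 1 library, and per cell 2 of the 18 kept it. By TMM scaling, leaving out a section gave 4 to 8 higher and 9 to 15 lower genes. Per cell it gave 4 to 18 higher and 1 to 3 lower, and for the ratios 0 to 1 higher and 0 lower. A fit of the 14 d and 72 h sections only, with 3 residual degrees of freedom, called 23 higher and 26 lower by TMM scaling, 37 and 10 per cell, and 19 and 6 for the ratios. With the 14 d sections as 1 library or 1 value, which leaves that time with no spread of its own, the counts were 3 and 4, 1 and 1, and 0 and 0. Total-count scaling called 9 lower genes. RLE scaling called 14 higher and 13 lower genes and DESeq2 called 14 and 15, so that the share of higher calls was 51.9% and 48.3%, against 37.0% by TMM scaling. With the slide as a random block, 8 genes were higher and 14 lower by TMM scaling, and 14 and 3 per cell. A fit of only the times with numbered sections, chosen after seeing the data, called 12 higher and 13 lower by TMM scaling, and 14 and 4 per cell. Between 72 h and 14 d, sections with the same number did not deviate together (correlations of 0.07 for number 1 and -0.07 for number 2). For the other pairs of times in the block the correlations ran from -0.51 (0 h with 48 h) to 0.21 (0 h with 72 h). With the section number as a replicate block, in 98 genes, 8 genes were higher and 10 lower by TMM scaling, 8 and 1 per cell, and for the ratios 1 was higher and 0 lower. For the ratios, 2 genes were higher without thinning and 2 with at least 100 transcripts per section, and 0 with thinning to 100 transcripts or with Cyp2e1 left out. With zones of 20% of the cells 0 were higher and 0 lower. At an unadjusted p under 0.05 limma gave 11 higher and 5 lower genes with zones of 20%, 7 and 3 with thinning to 100, 2 and 5 without Cyp2e1, 2 and 3 with the block, 1 and 2 with 14 d as 1 value, and 1 to 10 and 3 when a section was left out. The causes were not tested. Depth limits genes with under 100 counts in every one of the 5 sections, which were Ccna1, Ccnb1, Fzd9, Fzd10, Slc16a10, Wnt3, Wnt3a, Wnt6, Wnt7b, Wnt8a, Wnt8b and Wnt10b.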
